A study of Mus musculus with 12 samples.

Results

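The transcripts of 10 genes of the endocannabinoid system were followed in hippocampal RNA-seq of mice exposed to Gulf War toxicants and of vehicle-treated mice. They were taken by symbol from the deposited table and are 10 of its 41743 genes: the receptor Cnr1, the enzymes Dagla, Daglb, Napepld, Mgll, Abhd6, Abhd12 and Faah, and the carriers Fabp5 and Fabp7. Toxicant mice were male C57Bl/6 animals aged 12 weeks. For 2 weeks, on weekdays, they received a daily subcutaneous mixture of 2.5 mg/kg pyridostigmine bromide, a reversible cholinesterase inhibitor, 12.5 mg/kg chlorpyrifos, an organophosphate insecticide, and 7.5 mg/kg DEET, an insect repellent. Control mice had the same strain, sex and age and received vehicle. Hippocampi were taken when the exposure ended, so each value is a mixture over all cell types of the tissue. The labels give 6 toxicant and 6 control samples from different animals. The deposited values of control 4 equal those of control 5 at every gene, closer than sampling noise allows for separate libraries. Which animal they belong to is not known, so the pair was counted as 1 sample, control 4-5. This left 6 toxicant and 5 control libraries.

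Endocannabinoids are lipids that neurons make on demand and that act backwards across the synapse. In the hippocampus, 2-arachidonoylglycerol (2-AG) is made mainly by the postsynaptic lipase encoded by Dagla, crosses to the terminal and engages the receptor encoded by Cnr1, which lowers transmitter release. The signal ends when monoacylglycerol lipase (Mgll) and the hydrolases Abhd6 and Abhd12 cleave 2-AG, while Faah cleaves the other main endocannabinoid, anandamide. These hydrolases carry an active-site serine, and several are known as secondary targets of organophosphates beside acetylcholinesterase. Enzyme activity, lipids and protein were not measured here.

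Values are RPKM, reads scaled to gene length and to the size of the library. The length that gave whole reads was that of all annotated exons of a gene merged, 1250 bases for Fabp7, 3567 for Fabp5 and 9567 for Daglb. Where this exceeds the transcript made, RPKM understates the level, so orders and ratios between genes depend on the annotation. The reads behind the scale came to 24.7 M ± 2.68 M (SD, n = 6) in toxicant and 29.6 M ± 3.61 M (SD, n = 5) in control libraries. The least covered of the 10 genes, Fabp7, had 167 to 451 reads per library and the most covered, Abhd12, 3517 to 8146. The share of the reads behind the scale that was counted for annotated genes was 76.8% to 83.8% in toxicant and 78.4% to 89.5% in control libraries. This share of reads on genes was worked out from RPKM and exon length. If only exon reads were counted, which is not given, reads in introns fell outside it. Marker lists of the neuron and glia classes of the hippocampus were expressed above 0 in every library, as was a list of choroid plexus markers, whose summed level ran from 15.6 to 1815 RPKM in toxicant and from 17.6 to 2904 RPKM in control libraries.

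Abhd12 had the highest RPKM of the 10 transcripts, at 72.1 ± 14.4 RPKM over all 11 libraries (SD). Mgll followed at 31.2 ± 4.46 RPKM, and its range did not overlap that of Abhd12. Dagla (25.3 ± 4.61 RPKM) lay below Mgll in 11 of 11 libraries, although their ranges overlapped. Dagla and Cnr1 (22.4 ± 4.70 RPKM) did not keep an order: Dagla was the higher of the pair in 1 of 6 toxicant and in 4 of 5 control libraries. Abhd6 (16.9 ± 2.04 RPKM), Fabp5 (15.6 ± 2.72 RPKM) and Faah (15.5 ± 2.04 RPKM) were not separated beyond their spread. Fabp7 was at 8.89 ± 2.12 RPKM, Napepld at 6.15 ± 0.945 RPKM and Daglb at 2.96 ± 0.497 RPKM. Faah exceeded Fabp7, and Napepld exceeded Daglb, in every library with no overlap of their ranges.

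Cnr1 was 1.30-fold higher in toxicant hippocampi, and 7 of the 9 other transcripts were lower there on average by 11.6% (Fabp5) to 20.5% (Abhd12), but none of the 10 passed the adjusted threshold. Each gene was tested with limma on log2(RPKM + 0.5) over 13493 genes, and the background at an adjusted p under 0.05 was 0% higher and 0% lower. At an unadjusted p under 0.05, 1 member was higher (Cnr1) and 6 were lower (Dagla, Daglb, Mgll, Abhd6, Abhd12 and Faah), where the background over all genes was 3.33% higher and 17.0% lower. Over all genes tested, 70.0% had a lower mean in toxicant libraries. Scaling the libraries by their median ratio moved the median of all genes to -0.02 and the genes at an unadjusted p under 0.05 to 1166 higher and 708 lower, against 449 higher and 2288 lower as deposited; of the members, 1 was then higher (Cnr1) and 0 were lower. Without control 2, Cnr1 passed the adjusted threshold upward and the same 6 enzymes downward, where the background was 8.56% higher and 28.1% lower. The median log2 fold change was -0.22 over the 10 members and -0.11 over all genes tested, and 7 members lay below that all-gene median. For none of the 10 did the toxicant and control libraries separate without overlap, where 0.111% of all genes did so upward and 2.03% downward. In bulk tissue, fewer cells of a type and less RNA per cell cannot be told apart.

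**Figure D1:**
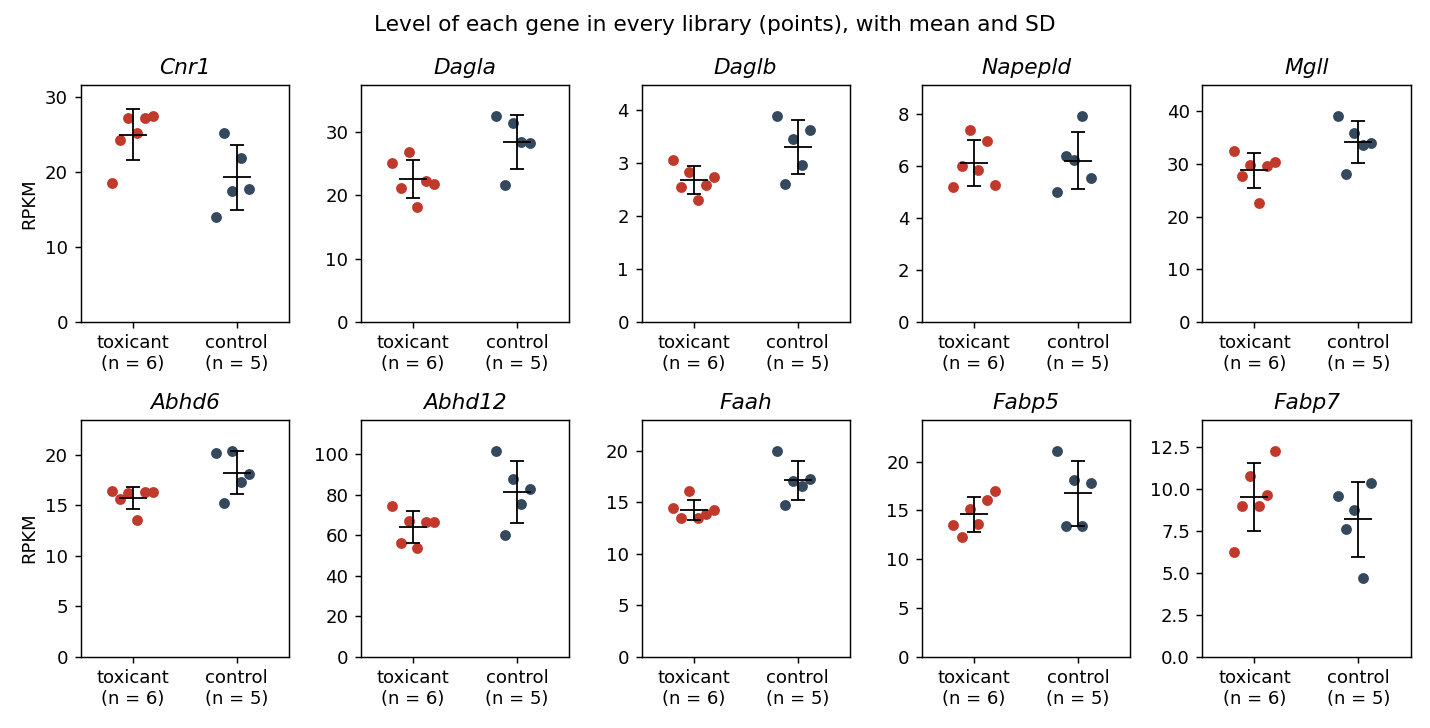
RPKM of the 10 genes in each library (points; toxicant red, n = 6, control dark blue, n = 5), with the group mean and SD in black, each axis starting at 0. All 6 toxicant libraries lie above the control median for Cnr1 and below it for Dagla, Daglb, Mgll, Abhd6, Abhd12, Faah and Fabp5, but in every panel the groups overlap.

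Cnr1 encodes the CB1 receptor, a G-protein-coupled receptor of axon terminals, dense on cholecystokinin-expressing interneurons and present on glutamatergic terminals. The gene (ENSMUSG00000044288) lies on chromosome 4 from 33924593 to 33948831, plus strand, in GRCm38 (GENCODE M21). It was at 18.6, 24.3, 27.1, 25.2, 27.1 and 27.5 RPKM in toxicant 1 to 6, against 14.0, 25.2, 17.4, 21.8 and 17.7 RPKM in control 1, 2, 3, 4-5 and 6. Toxicant 1 stood below the other toxicant libraries, and control 2 was as high as those. The other 4 controls lay below toxicant 2 to 6, and of these controls only control 4-5 lay above toxicant 1. The mean was 25.0 ± 3.38 RPKM in toxicant (SD, n = 6) and 19.3 ± 4.34 RPKM in control libraries (SD, n = 5). The log2 fold change was 0.38 ± 0.15 (SE; 95% interval 0.07 to 0.70; limma adjusted p = 0.223). An exact permutation test over all 462 assignments of the libraries to groups gave an unadjusted two-sided p of 0.0411. Without control 2 the log2 fold change was 0.48 (limma adjusted p = 0.0256), and without control 1 it was 0.28 (limma adjusted p = 0.467).

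Sequences before the transcription starts are shown for Cnr1, which was higher in toxicant libraries, and for Mgll and Faah, which were lower, as examples of the sequence there. They are the 200 bases before the first RefSeq start of each gene in GRCm38.p6, at chr4:33924064-33924263 (plus strand) for Cnr1, chr6:88724212-88724411 (plus strand) for Mgll and chr4:116017925-116018124 (minus strand) for Faah, read 5′ to 3′ on the gene's strand. Capitals mark the GC box GGGCGG or its complement CCGCCC.
Cnr1: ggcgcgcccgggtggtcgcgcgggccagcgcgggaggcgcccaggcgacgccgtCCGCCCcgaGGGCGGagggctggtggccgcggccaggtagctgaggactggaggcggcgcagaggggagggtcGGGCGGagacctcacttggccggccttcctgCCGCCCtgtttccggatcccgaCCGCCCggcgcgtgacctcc
Mgll: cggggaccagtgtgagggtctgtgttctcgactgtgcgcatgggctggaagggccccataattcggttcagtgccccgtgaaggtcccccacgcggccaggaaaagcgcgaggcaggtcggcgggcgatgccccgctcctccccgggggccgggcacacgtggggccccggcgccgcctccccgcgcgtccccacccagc
Faah: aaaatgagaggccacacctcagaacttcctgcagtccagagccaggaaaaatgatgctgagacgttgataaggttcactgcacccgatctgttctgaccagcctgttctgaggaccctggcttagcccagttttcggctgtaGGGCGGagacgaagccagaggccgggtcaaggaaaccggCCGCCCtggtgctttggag
The Cnr1 window held 5 GC boxes, that of Faah 2 and that of Mgll 0, while 31.0% of all promoter windows of this length held at least 1. Counts depended on the start: Cnr1 had 3 windows in the table, of which the other two held 0 GC boxes, and the second of the 2 Mgll windows held 1. The E-box CACGTG, searched on both strands and held by 5.26% of windows, was in the Mgll window shown but not in the second one, and in the second Cnr1 window but not in the one shown. Neither motif therefore separated Cnr1 from Mgll over all their windows. The letters TGACG of the cAMP response element, searched on both strands, was in 15.7% of all windows and in none of the 11 windows found for 7 of the 10 members. Base composition of the windows shown was 79.0% G and C for Cnr1, 73.5% for Mgll and 56.5% for Faah, against a median of 53.0% over all windows.

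The enzymes of 2-AG synthesis were lower on average in toxicant libraries. Dagla (ENSMUSG00000035735, chromosome 19 from 10245265 to 10304877, minus strand) encodes the diacylglycerol lipase that supplies synaptic 2-AG. Its level was 25.1, 21.2, 26.96, 18.2, 22.3 and 21.9 RPKM in toxicant 1 to 6, against 32.6, 21.7, 31.4, 28.4 and 28.3 RPKM in control 1, 2, 3, 4-5 and 6. Toxicant 2 and toxicant 4 lay under the lowest control, control 2, and the other 4 toxicant libraries lay between control 2 and the remaining controls. For Dagla the log2 fold change was -0.32 ± 0.12 (SE; 95% interval -0.58 to -0.06; limma adjusted p = 0.221). Daglb (ENSMUSG00000039206, chromosome 5 from 143464584 to 143505942) encodes the related lipase used more by microglia and other non-neuronal cells. It averaged 2.68 ± 0.259 RPKM in toxicant (SD, n = 6) and 3.30 ± 0.516 RPKM in control libraries (SD, n = 5), giving -0.25 ± 0.10 on the log2 scale (limma adjusted p = 0.223), with 3 of 6 toxicant libraries under the lowest control. In GENCODE M21, 24.1% of the exon length of Daglb overlaps exons of Rac1 on the other strand, and Rac1 averaged 51.4 RPKM. Whether the counting used strand is not given, so the Daglb values are uncertain.

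Mgll, Abhd6 and Abhd12, which cleave 2-AG, had lower means in toxicant libraries and varied together from library to library. Mgll (ENSMUSG00000033174, chromosome 6 from 88724412 to 88828360, plus strand) encodes the main 2-AG hydrolase of nerve terminals and also of glia. It was at 32.5, 27.8, 29.8, 22.7, 29.5 and 30.4 RPKM in toxicant 1 to 6, against 39.1, 28.1, 35.9, 33.5 and 33.9 RPKM in control 1, 2, 3, 4-5 and 6. Every toxicant library lay below 4 of the 5 controls, and control 2 lay within the toxicant range. Its log2 fold change was -0.24 ± 0.11 (95% interval -0.47 to -0.01; limma adjusted p = 0.239).

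Abhd12 (ENSMUSG00000032046, chromosome 2 from 150832493 to 150904741) encodes a hydrolase of microglia and other cells that also cleaves lysophosphatidylserine. Its level was 74.6, 56.2, 67.2, 53.8, 66.5 and 66.7 RPKM in toxicant 1 to 6, against 101.9, 60.3, 87.6, 75.3 and 82.7 RPKM in control 1, 2, 3, 4-5 and 6. Control 1 was the highest library and toxicant 4 the lowest, 1.89-fold apart, and again only control 2 fell within the toxicant range. For Abhd12 the log2 fold change was -0.33 ± 0.13 (95% interval -0.62 to -0.05; limma adjusted p = 0.224). Abhd6 (ENSMUSG00000025277, chromosome 14 from 8002902 to 8056763), a postsynaptic membrane hydrolase, averaged 15.7 ± 1.11 RPKM in toxicant (SD, n = 6) and 18.2 ± 2.14 RPKM in control libraries (SD, n = 5), giving -0.20 ± 0.09 on the log2 scale (limma adjusted p = 0.240). Of the summed level of these 3 transcripts, Abhd12 made up 59.0% ± 1.38 in toxicant and 60.7% ± 1.88 in control libraries (SD). The share of Mgll was 26.5% ± 0.872 and that of Abhd6 14.5% ± 0.812 in toxicant libraries, against 25.6% ± 1.19 and 13.7% ± 0.823 in control libraries. Over the 11 libraries the share of Abhd12 stayed between 56.4% and 63.2%, that of Mgll between 24.3% and 27.9% and that of Abhd6 between 12.5% and 15.7%.

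The anandamide pair had unlike estimates, but the difference between the genes was not tested. Napepld over Faah was 0.428 ± 0.054 in toxicant (SD, n = 6) and 0.369 ± 0.090 in control libraries (SD, n = 5). The groups overlapped, with 1 of 6 toxicant libraries above the highest control. Napepld (ENSMUSG00000044968, chromosome 5 from 21662901 to 21701396), a phospholipase that releases anandamide from its membrane precursor, was at 5.19, 6.01, 7.37, 5.84, 6.95 and 5.26 RPKM in toxicant 1 to 6, against 4.98, 6.38, 6.22, 7.93 and 5.53 RPKM in control 1, 2, 3, 4-5 and 6. The groups covered the same range, and the log2 fold change was -0.018 ± 0.12 (95% interval -0.28 to 0.24; limma adjusted p = 0.918). Its sign turned under both other scalings and without control 4-5, toxicant 1 or toxicant 6. Faah (ENSMUSG00000034171, chromosome 4 from 115967145 to 116017926) encodes fatty acid amide hydrolase. It was at 14.4, 13.5, 16.1, 13.5, 13.9 and 14.2 RPKM in toxicant 1 to 6, against 20.0, 14.7, 17.0, 16.6 and 17.2 RPKM in control 1, 2, 3, 4-5 and 6. Toxicant 3 was the 1 toxicant library above the lowest control, so 5 of 6 lay below every control. Faah had a log2 fold change of -0.25 ± 0.08 (95% interval -0.43 to -0.07; limma adjusted p = 0.211, exact permutation p = 0.0108 unadjusted), with the smallest unadjusted p of the 10 genes. Without control 2 it was -0.30 (limma adjusted p = 0.0244), and without control 1 it was -0.20 (limma adjusted p = 0.419).

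Fabp5 and Fabp7 encode fatty acid-binding proteins that carry anandamide and other lipids through the cytoplasm, and Fabp7 marks radial glia and astrocytes. Fabp5 (ENSMUSG00000027533, chromosome 3 from 10012548 to 10016607) averaged 14.6 ± 1.80 RPKM in toxicant (SD, n = 6) and 16.8 ± 3.36 RPKM in control libraries (SD, n = 5), a log2 fold change of -0.18 ± 0.13 (95% interval -0.46 to 0.10; limma adjusted p = 0.359). A pseudogene copy of Fabp5 is annotated, and how reads shared with such copies were counted is not given. Fabp7 (ENSMUSG00000019874, chromosome 10 from 57784881 to 57788450) was at 6.22, 8.99, 10.8, 8.998, 9.63 and 12.3 RPKM in toxicant 1 to 6, against 9.55, 7.62, 8.72, 4.65 and 10.4 RPKM in control 1, 2, 3, 4-5 and 6. It was the most variable of the 10, with a 2.64-fold range between control 4-5 and toxicant 6. The log2 fold change was 0.22 ± 0.19 (95% interval -0.20 to 0.64; limma adjusted p = 0.437), and it was 0.04 without control 4-5.

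**Figure D2:**
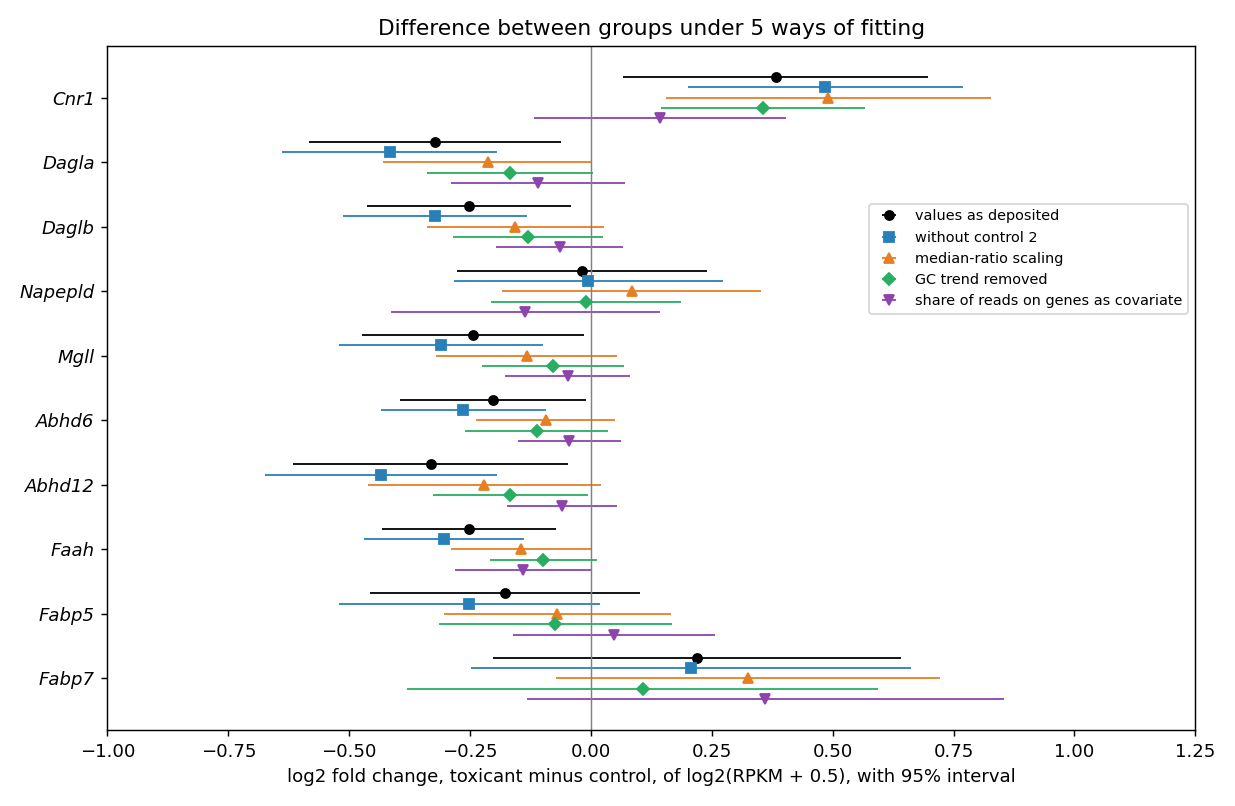
Log2 fold change of each gene, toxicant minus control, on the scale of log2(RPKM + 0.5), with its 95% interval under limma: values as deposited (black), without control 2 (blue), with median-ratio scaling (orange), with each library's GC trend removed (green) and with the gene-assigned share of reads in the fit (purple). The estimates for Dagla, Mgll and Abhd12 are -0.32, -0.24 and -0.33 as deposited and -0.11, -0.05 and -0.06 with that share in the fit.

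Faah and the 2-AG enzymes varied together across the libraries, Fabp5 followed them more loosely, and Cnr1 differed from them most, beside Fabp7. After each gene was centred on its mean over the 11 libraries, Mgll varied by 0.20 log2 units (root mean square) but differed from Abhd6 by 0.07, from Daglb by 0.08, from Dagla by 0.09, from Abhd12 by 0.10 and from Faah by 0.11. Fabp5, whose own variation was 0.23, differed from Mgll by 0.17 and from Dagla by 0.20. Mgll differed from Cnr1 by 0.47 and from Fabp7 by 0.42. Likeness to Mgll was not particular to these enzymes: Prdx3, Cx3cr1 and Osbp2, outside the pathway, differed from it by 0.038, 0.043 and 0.045. The ratio of Dagla to Daglb was 8.43 ± 0.592 in toxicant (SD, n = 6) and 8.65 ± 0.706 in control libraries (SD, n = 5), and over the 11 libraries it spanned a 1.23-fold range. Dagla over Mgll, synthesis against hydrolysis of 2-AG, was 0.787 ± 0.0640 in toxicant and 0.832 ± 0.0381 in control libraries. The difference was smaller than the toxicant SD but larger than the control SD. In 3 of 6 toxicant libraries this ratio lay below the lowest control, and in 1 it lay above the highest. Cnr1 over Mgll was 0.882 ± 0.174 in toxicant and 0.583 ± 0.204 in control libraries and spanned a 3.10-fold range. In 4 of 6 toxicant libraries it lay above the highest control, control 2. Fabp7 over Fabp5 was 0.648 ± 0.105 in toxicant and 0.487 ± 0.0953 in control libraries, with 5 of 6 toxicant libraries above the highest control. These ratios are descriptions and were not tested.

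**Figure D3:**
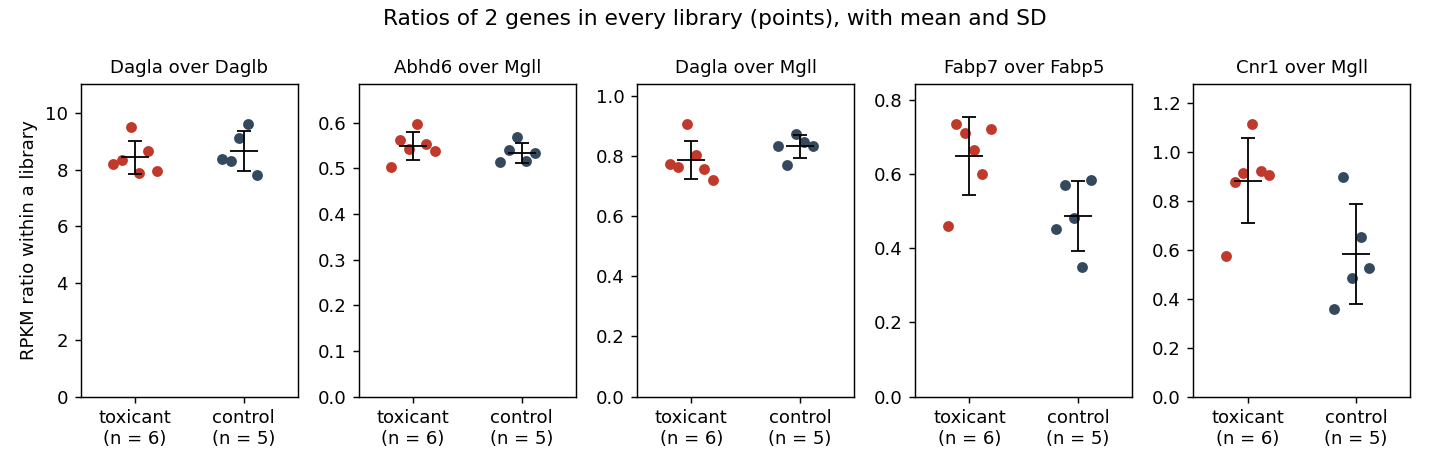
Ratios of the RPKM of a pair of genes within each library (points; toxicant red, n = 6, control dark blue, n = 5), with mean and SD in black, each axis starting at 0. Dagla over Daglb lies between 7.82 and 9.60 in all 11 libraries, while Cnr1 over Mgll runs from 0.359 in control 1 to 1.11 in toxicant 4.

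Most members followed the share of reads counted for annotated genes, which was 80.8% ± 2.68 in toxicant (SD, n = 6) and 85.4% ± 4.58 in control libraries (SD, n = 5). In a limma fit with group and this share, 7 members had a positive slope past an adjusted p of 0.05 and Cnr1 a negative one, where the background over all genes was 41.8% positive and 22.1% negative. The share is summed from the same values, so a rise with it is in part built in. Over all genes tested the median slope was 0.017 log2 units per percentage point, while the p-values test against 0. Faah, among the 7, had a slope of 0.025 ± 0.0081 (SE), near that median. Per percentage point the slope was 0.060 ± 0.0065 log2 units for Abhd12 (SE, limma adjusted p = 2.87e-05), 0.043 ± 0.0074 for Mgll (limma adjusted p = 0.000366) and -0.053 ± 0.015 for Cnr1 (limma adjusted p = 0.00840). The slopes of Napepld and Fabp7 did not pass (limma adjusted p = 0.170 and 0.351). Leaving out control 2, the slopes of Cnr1, Faah and Dagla no longer passed (limma adjusted p = 0.107 for Cnr1 and 0.192 for Faah, and just over the threshold for Dagla). The slope of Faah failed in 1 further leave-out.

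With the share as a covariate the difference between the groups shrank for Cnr1 and for the 2-AG enzymes. The log2 fold change was then 0.14 for Cnr1 (limma adjusted p = 0.645), -0.11 for Dagla, -0.06 for Daglb, -0.05 for Mgll, -0.04 for Abhd6, -0.06 for Abhd12 and -0.14 for Faah, and 0 members had an unadjusted p under 0.05. The log2 fold change was 0.05 for Fabp5, 0.36 for Fabp7 and -0.14 for Napepld, against -0.018 for Napepld as deposited. Pairs of libraries with like shares can be set side by side. Toxicant 2 (78.7% on genes) and control 2 (78.4%) had 24.3 and 25.2 RPKM of Cnr1, 27.8 and 28.1 RPKM of Mgll and 21.2 and 21.7 RPKM of Dagla. Toxicant 6 and control 4-5, both at 83.1%, had 27.5 and 21.8 RPKM of Cnr1, 30.4 and 33.5 RPKM of Mgll and 21.9 and 28.4 RPKM of Dagla, so the first pair lay closer together than the second. Toxicant 1, at 83.8%, had 18.6 RPKM of Cnr1, 32.5 RPKM of Mgll and 25.1 RPKM of Dagla, so that its Cnr1 was below that of control 4-5. These are single libraries with no replicate error, and the order of Cnr1 at like shares was not the same in each. The share and the groups differ together in part, and how much of each difference belongs to either cannot be told apart in 11 libraries.

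**Figure D4:**
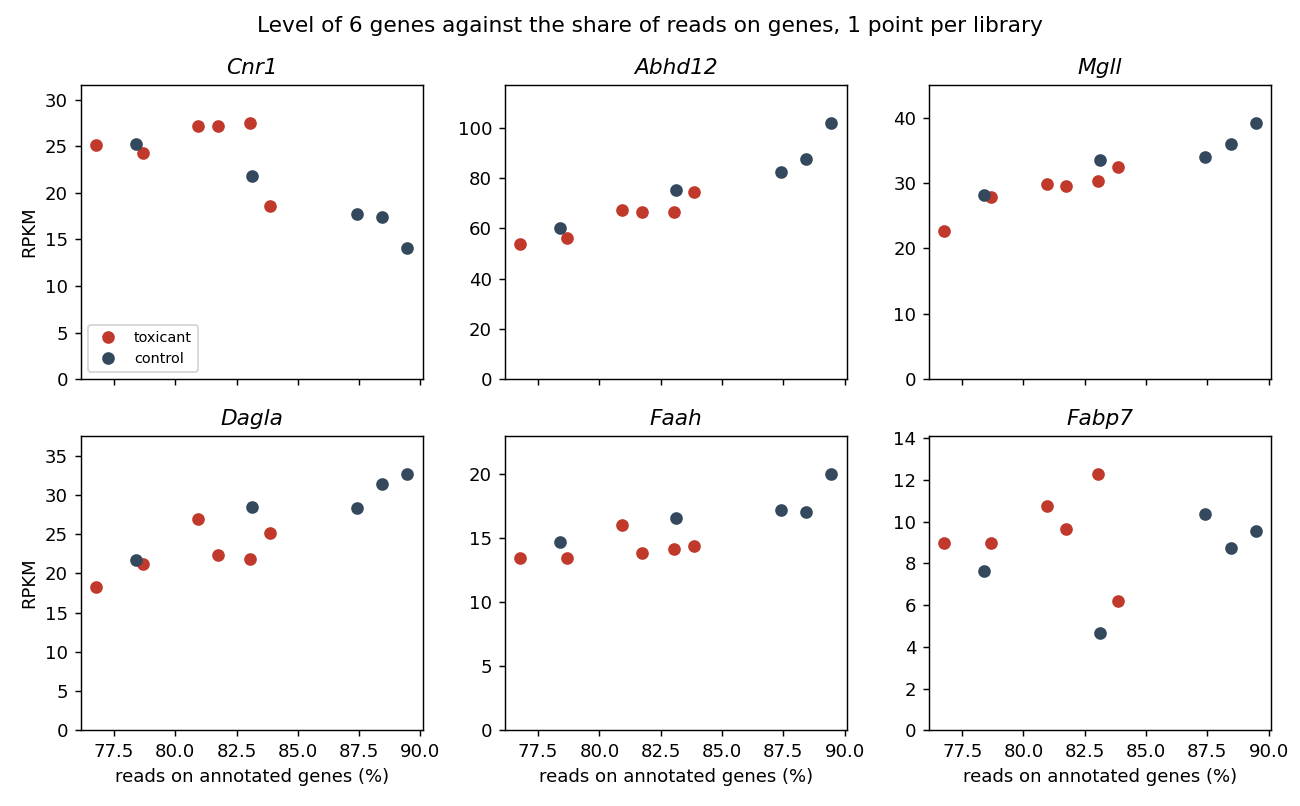
RPKM of 6 genes (vertical axes, from 0) against the percent of reads counted for annotated genes, 1 point per library (toxicant red, control dark blue). Abhd12 runs from 53.8 RPKM in toxicant 4 (76.8% on genes) to 101.9 RPKM in control 1 (89.5%), and Cnr1 is lowest in control 1, at 14.0 RPKM.

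The members also differed in the base composition of their transcripts. Cnr1, Fabp7 and Napepld, the 3 members with the lowest G and C content of the longest transcript (44.9%, 42.6% and 45.8%), had the 3 highest log2 fold changes, from -0.018 to 0.38. The other 7 members had 48.4% (Abhd6) to 58.8% (Dagla) and log2 fold changes from -0.33 to -0.18. With each library's trend on transcript GC removed, the log2 fold change was 0.36 for Cnr1 (limma adjusted p = 0.186), -0.17 for Dagla, -0.17 for Abhd12, -0.08 for Mgll and -0.10 for Faah. It was 0.11 for Fabp7 and -0.011 for Napepld, and the median over the 10 members was -0.09. This step also removed each library's overall level, and the median of all genes moved from -0.11 to -0.019. Median-ratio scaling, with no GC term, gave 0.49 for Cnr1, -0.21 for Dagla, -0.22 for Abhd12, -0.13 for Mgll and -0.14 for Faah. How much of the change belongs to base composition was not tested.

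The patterns most like that of Cnr1 over the 11 libraries, among 12292 named genes, were those of the netrin receptor Dcc (root mean square difference 0.042 log2 units), the chromatin-associated factor Psip1 (0.050) and the translation initiation factor Eif3a (0.053). Mgll was most like the mitochondrial peroxiredoxin Prdx3 (0.038), the microglial chemokine receptor Cx3cr1 (0.043) and the oxysterol-binding protein gene Osbp2 (0.045). For Fabp7 no gene came as close, and the nearest were Chrm5 (0.21), Igsf21 (0.23) and Vegfd (0.23).

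Of 77 other genes of the endocannabinoid pathway, 60 passed the filter on low values, and none of them passed the adjusted threshold (0 higher, 0 lower). At an unadjusted p under 0.05, 2 of 60 were higher and 12 lower, near the background of 3.33% higher and 17.0% lower over all genes, and 28 of the 60 lay below the all-gene median. Their median log2 fold change was -0.11, the same as over all genes. The smallest p among lower genes belonged to Chrm3, a muscarinic receptor that drives 2-AG release, at 5.67 ± 1.00 RPKM in toxicant (SD, n = 6) and 7.76 ± 1.05 RPKM in control libraries (SD, n = 5), giving -0.43 ± 0.12 on the log2 scale (limma adjusted p = 0.199). Abhd4, a hydrolase of an alternative route to anandamide, was at 10.2 ± 0.885 RPKM in toxicant and 13.2 ± 1.89 RPKM in control libraries (log2 fold change -0.35 ± 0.10, limma adjusted p = 0.201). Among higher genes the smallest p belonged to Homer1, which links group I glutamate receptors to Dagla, at 8.80 ± 0.653 RPKM in toxicant and 6.70 ± 1.91 RPKM in control libraries (0.41 ± 0.14, limma adjusted p = 0.219), followed by the phospholipase gene Plcb1, at 13.4 ± 1.82 RPKM in toxicant and 10.6 ± 2.65 RPKM in control libraries (0.34 ± 0.15, limma adjusted p = 0.234). The second cannabinoid receptor Cnr2 averaged 0.031 RPKM in toxicant and 0.032 RPKM in control libraries and was under the filter, as were Trpv1, Gpr55 and the carrier Fabp4.

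By role, 11 other synthesis enzymes had 1 gene higher and 4 lower at an unadjusted p under 0.05, and 9 other hydrolases and oxygenases 0 higher and 1 lower. The 9 receptors and partners that drive 2-AG release had 1 higher and 2 lower, the 18 presynaptic effectors 0 higher and 3 lower, the 8 other receptors and receptor partners 0 higher and 2 lower, and the 5 other carriers 0 of either. The background for these counts is the same 3.33% higher and 17.0% lower.

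Markers of cells that express the members differed in sign within a list. Cck, the peptide of the interneurons richest in CB1, differed by -0.31 ± 0.14 on the log2 scale (limma adjusted p = 0.244), and Gad1, the GABA-synthesising enzyme, by -0.14 ± 0.10. Of 9 markers of Cck interneurons 5 were higher and 4 lower on average, their median on that scale was 0.0075, and Trpc4 (0.12 ± 0.06) was above every control in all 6 toxicant libraries. Of 10 GABA neuron markers 2 were higher and 8 lower, with a median of -0.15, and the higher pair, Gad2 (0.42 ± 0.15) and Erbb4 (0.42 ± 0.16), had unadjusted p-values under 0.05 (limma adjusted p = 0.217 and 0.223). Trpc4, Gad2 and Erbb4 were chosen after their values were seen. The pyramidal cell transporter gene Slc17a7 had -0.18 ± 0.15. Among astrocyte genes, which could carry Fabp7 and Mgll, Slc1a3 had -0.14 ± 0.07, Aldh1l1 -0.17 ± 0.12 and Aqp4 0.27 ± 0.17. The microglial gene Cx3cr1 had -0.27 ± 0.10, the oligodendrocyte precursor gene Pdgfra -0.07 ± 0.07 and the myelin gene Mbp -0.56 ± 0.12, and none of the markers named here passed the adjusted threshold. The summed level of 11 oligodendrocyte markers was 482 to 666 RPKM in toxicant and 691 to 776 RPKM in control libraries, and that of 8 endothelial markers 32.6 to 36.9 RPKM in toxicant and 38.5 to 47.6 RPKM in control libraries. Summed microglial markers (11 genes) were at 129 to 161 RPKM in toxicant and 151 to 208 RPKM in control libraries, and summed astrocyte markers (13 genes) at 460.2 to 529.96 RPKM in toxicant and 507 to 557 RPKM in control libraries. The neuron lists also had lower mean sums in toxicant libraries, with overlapping groups. Toxicant and control means were 193 and 230 RPKM for Cck interneurons, 315 and 344 for GABA neurons, 82.0 and 98.6 for granule cells and 482 and 573 for pyramidal cells. Oligodendrocyte precursor markers had 35.4 and 39.6 RPKM, again with overlap. A sum follows its most abundant genes. No marker of these lists was at 0 in any library. The part of cell composition in the members' differences was not tested.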

How the data were processed

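Polyadenylated RNA of whole hippocampi was sequenced as single reads from libraries made with a NEBNext Ultra kit, per the labels' protocols. The authors deposited 1 RPKM value per gene and library, per the file headers; no source used here names the aligner, counting program or build. Columns were matched to samples by the code in each sample's description. RPKM multiplied by GENCODE M21 exon length (41675 of 41743 gene IDs matched) gave whole reads within 0.05 for 98.3% to 98.4% of values, which set the depths. Genes averaging 0.5 RPKM or more were tested as log2(RPKM + 0.5) with limma 3.58.1 in R 4.3.3 (trended variance, two-sided, Benjamini-Hochberg over all genes, threshold 0.05), which was also tested on simulated data. Fold changes on this scale understate the change of low genes. RPKM is not a count, so no count model was the main test. p-values measure the spread between animals.

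The members and lists were chosen with earlier results of these data known, and the slopes on the share of reads on genes after seeing the data. Named were all members, the 2 pathway genes with the smallest p in each direction, the 3 genes most like Cnr1, Mgll and Fabp7, and 9 markers. Alternatives were other pseudocounts (0.1 and 1), filters, scalings and covariates, the replicate number as a block, voom on recovered reads, 12 libraries and leaving out each library. Promoters are from RefSeq (GRCm38.p6).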

Additional observations from a re-analysis of the deposited data

Results flagged for a closer look

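Single values of 3 genes stood apart from the rest of their group by Dixon's criterion, among 38 groups of values examined, where chance gives about 1.9. Cnr1 was at 18.6 RPKM in toxicant 1, against 24.3 to 27.5 RPKM in the other 5 toxicant libraries. This library had the highest share of reads on genes of the toxicant group, 83.8%, and without it the log2 fold change of Cnr1 was 0.46 (limma adjusted p = 0.178). Faah was at 16.1 RPKM in toxicant 3, against 13.5 to 14.4 RPKM in the others, and without that library its log2 fold change was -0.29 (limma adjusted p = 0.242). Abhd6 was at 13.5 RPKM in toxicant 4, against 15.6 to 16.4 RPKM, and without it the log2 fold change was -0.16 (limma adjusted p = 0.411). Toxicant 4 had the lowest share of reads on genes, 76.8%.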

How the results depend on the processing

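No member passed the adjusted threshold in any alternative but 1: without control 2, Cnr1 was called higher and 6 members lower, among 1153 genes higher (8.56%) and 3779 lower (28.1%). Leaving out 1 library at a time, the genes called ran from 0 to 1153 higher and from 0 to 3779 lower, members called from 0 to 1 higher and from 0 to 6 lower, and other pathway genes called from 0 to 4 higher and from 0 to 17 lower. Members at an unadjusted p under 0.05 ran from 0 to 1 higher and from 2 to 6 lower, and the medians from -0.28 to -0.17 (members) and from -0.18 to -0.09 (pathway). A pseudocount of 0.1 called 1 gene higher, and the 12 libraries as deposited called 9 lower. Members lower at an unadjusted p under 0.05 numbered 0 with median-ratio scaling, 3 with quantile normalization, 1 with the GC trend removed and 0 with the gene-assigned share as covariate, where 0 were higher. The members' median was -0.073 with quantile normalization and -0.054 with the covariate, and the pathway median -0.00079 and -0.0027 with median-ratio scaling and quantile normalization. Median-ratio scaling moved the median of all genes to -0.02, and 30 of 60 pathway genes were then higher. Napepld reversed with median-ratio scaling (0.085), quantile normalization (0.042) and without control 4-5 (0.068), toxicant 1 (0.022) or toxicant 6 (0.019), with -0.087 the lowest on leaving out 1 library, and Fabp5 with the covariate (0.048). The cause was not tested.

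The deviations of same-numbered libraries correlated between -0.30 (number 3) and 0.62 (number 1), which does not settle whether replicate numbers pair the samples. The control most like toxicant 1 and toxicant 6 had the same number, while that of toxicant 2, 3 and 4 had another. With the replicate block 0 genes were called higher and 0 lower, and the members' median was -0.23. At an unadjusted p under 0.05, 1064 were higher and 3600 lower, against 449 and 2288 without the block. In the block fit control 4-5 was assigned to number 4, which is not known to be right. Toxicant 5 then had no partner and did not enter the group estimate. Without toxicant 5 and without the block, 274 were higher and 1814 lower. With 462 splits the exact test allows no p under 0.00216. Depth limits the low genes: Cnr2 had a mean of 3.36 reads per library.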
